A study of Mus musculus with 2 samples.

Results

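The genes described here belong to the hedgehog signalling pathway. They were followed across cells of the mouse choroid, the vascular layer behind the retina, and of the retinal pigment epithelium (RPE) on it. They are the ligand Ihh, the receptor Ptch1, Smo, the transcription factors Gli1, Gli2 and Gli3, and Hhip, 7 of the 32285 genes in the files. They were chosen by symbol after their levels by cell class had been seen in these data. Ihh had been seen in endothelial cells, and Gli1 and Hhip mainly in stromal cells. These levels are therefore a description, and the question followed here is which stromal cells carry the targets of the endothelial ligand.

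Hedgehog proteins are secreted ligands. They bind the receptor PTCH1 on a neighbouring cell, which frees the membrane protein SMO from repression, and the signal is passed on by the transcription factors GLI1, GLI2 and GLI3. Transcription of Gli1, Ptch1 and Hhip rises in cells that receive the signal, so these genes are widely used as its readout, and HHIP is a decoy that binds the ligands.

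The tissue was choroid dissected from wild-type mice of the ICR strain aged 8 weeks, and no treated or mutant group was analysed here. Each of the 2 droplet libraries, called library 1 and library 2, pooled the choroids of 1 male and 1 female mouse, which cannot be told apart within a library. The files hold raw counts of unique molecular identifiers (UMIs), and a level is given as CPM, the UMIs of a gene scaled to a common total over the summed cells of a group. The libraries held 91741168 and 149570817 UMIs, and 8497 and 13401 barcodes were kept as cells, with a median of 7842 and 8253 UMIs. A kept barcode had 1000 or more UMIs, 500 or more genes and no more than 20% of UMIs from mitochondrial genes. The 2 libraries shared 31 of the kept barcodes. Free RNA, taken from barcodes with at most 100 UMIs, made up 4.90% and 4.11% of all UMIs.

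Cells were put into 6 classes by the marker triple with the most UMIs, with at least 5 required. The fibroblast class (Dcn, Col1a2 and Col3a1) held 4095 cells of library 1 and 6278 of library 2, and the mural class (Rgs5, Myh11 and Acta2), the pericytes and smooth muscle cells around vessels, held 1118 and 1713. The endothelial class (Cdh5, Pecam1 and Egfl7) held 465 and 609 cells, the melanocyte class (Dct, Pmel and Mlana) 1407 and 2249, the RPE class (Rpe65, Rgr and Rlbp1) 304 and 902, and the macrophage class (C1qa, Csf1r and Cd68) 430 and 866. Another 678 and 784 cells reached no class. Markers not used for the classes followed them. The summed level of the endothelial genes Tie1, Tek and Flt1 was 2884 and 3886 CPM in the endothelial class and at most 83.1 CPM in every other class. The fibroblast genes Pdgfra, Lum and Col6a3 summed to 2009 and 2177 CPM in the fibroblast class, against 159 and 249 CPM in the mural class.

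Ihh was an endothelial transcript in both libraries. The endothelial class had 86.7 CPM in library 1 and 30.5 CPM in library 2 (58.6 ± 39.8, SD, n = 2), from 542 and 278 UMIs, and no other class exceeded 1.40 CPM in either library. The endothelial class held 94.1% of all Ihh UMIs of kept cells in library 1 (95% exact binomial interval 91.8% to 95.9%) and 89.4% in library 2 (85.4% to 92.6%), although it made up 5.47% and 4.54% of the cells. The levels of the other classes lay below the Ihh level of the free RNA, which was 6.45 and 2.12 CPM. Free RNA, estimated from rod photoreceptor genes, made up at most 13.0% of the UMIs of a class. Its part in these levels was not tested. Ihh differed almost 3-fold between the libraries in the endothelial class, and the cause was not tested. The gene lies on chromosome 1 of GRCm38 at chr1:74945315-74951672, on the minus strand, and no other annotated gene overlaps it.

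**Figure D1:**
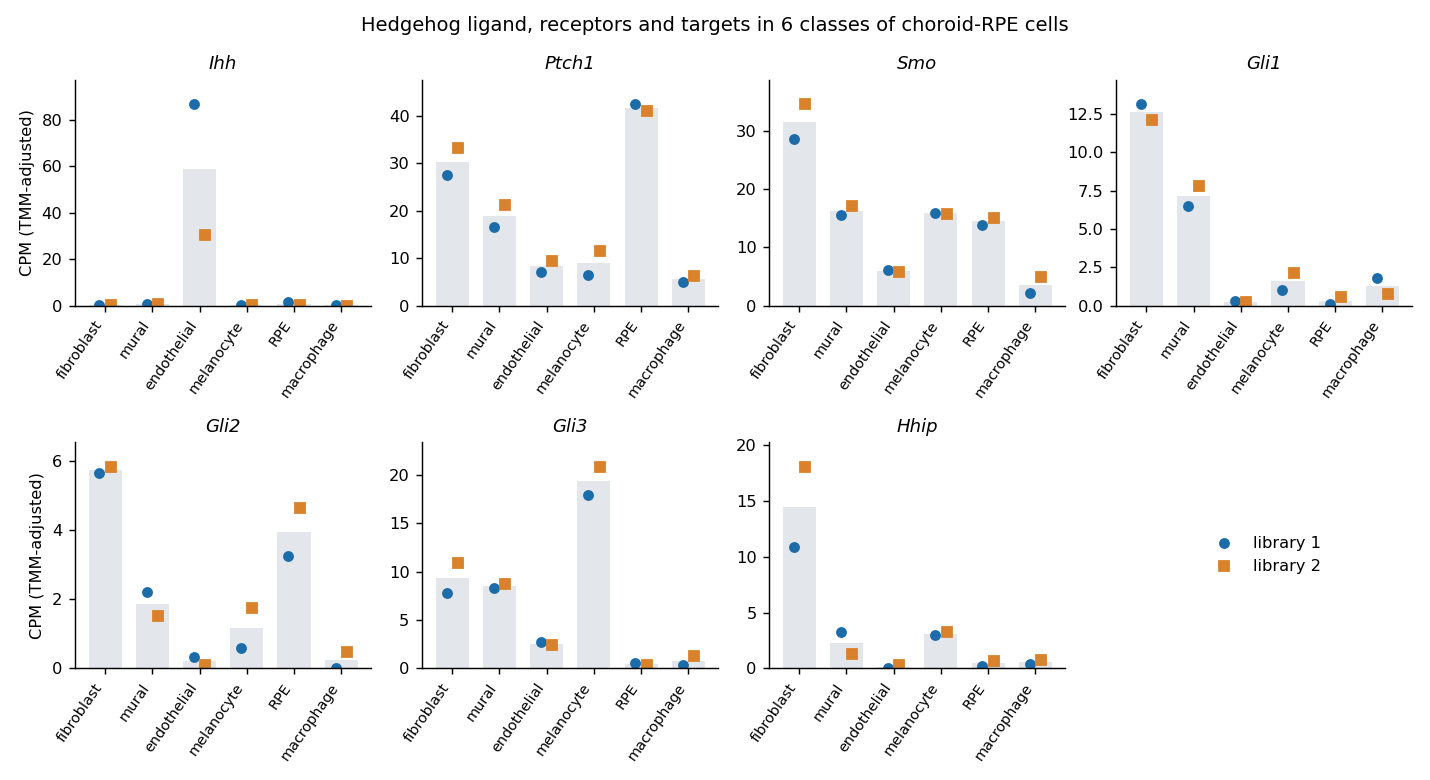
Level of each of the 7 genes (CPM on TMM-adjusted library sizes, y axis from 0 and different for each gene) in the 6 cell classes. Bars are the mean of 2 libraries and symbols the single libraries. Ihh stands only in the endothelial class, Gli1 and Hhip are highest in the fibroblast class, Ptch1 in the RPE class and Gli3 in the melanocyte class.

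Of the targets, Gli1 and Hhip were highest in the fibroblast class, whereas Ptch1 was highest in the RPE class. Gli1, the transcription factor whose own gene is a standard readout of the pathway, had 13.1 and 12.1 CPM in the fibroblast class (12.6 ± 0.736, SD, n = 2; 480 and 834 UMIs) and 6.47 and 7.78 CPM in the mural class (7.13 ± 0.921; 50 and 113 UMIs). It was near 0 in the endothelial class, with 0.320 and 0.219 CPM from 2 UMIs in each library, and in the RPE class, with 0.116 and 0.539 CPM. The melanocyte class had 1.04 and 2.14 CPM and the macrophage class 1.81 and 0.774 CPM. The 2 libraries of the fibroblast class and those of the mural class thus lay above all others, and the fibroblast class held 83.5% and 79.5% of all Gli1 UMIs. Gli1 (chr10:127329882-127341974, minus strand) overlaps Arhgap9 on the opposite strand, and no source used here states whether reads were counted by strand. Arhgap9 had 8 and 40 UMIs in the fibroblast class and 0 and 3 in the mural class, but 123 and 272 in the melanocyte class and 43 and 73 in the macrophage class, where the few Gli1 UMIs (18 and 68, and 5 and 5) are uncertain.

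Hhip, the ligand decoy, was lower in the mural class than in the fibroblast class by more than Gli1 was. It had 10.9 and 18.1 CPM in the fibroblast class (14.5 ± 5.10, SD, n = 2; 397 and 1246 UMIs), 2.99 and 3.25 CPM in the melanocyte class and 3.24 and 1.31 CPM in the mural class. In the other 3 classes it did not exceed 0.774 CPM. Ptch1, the receptor and at the same time a target, was spread more widely. Its level was 42.6 and 41.0 CPM in the RPE class, 27.5 and 33.3 CPM in the fibroblast class, and 16.6 and 21.2 CPM in the mural class. The melanocyte class had 6.50 and 11.4 CPM and the endothelial class 7.20 and 9.42 CPM, which overlap, and the macrophage class had 5.07 and 6.34 CPM, below both.

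On this scale the RPE class had the highest Ptch1 level together with few Gli1 and Hhip UMIs, and Hhip had 0.233 and 0.686 CPM there. On raw UMI totals the RPE class had 37.5 and 38.4 CPM of Ptch1, against 26.4 and 37.4 CPM in the fibroblast class, so the libraries differ in how far it lies above. Ptch1 UMIs of the RPE class numbered 366 and 838, against 1 and 11 for Gli1. In RPE cells thinned to 2000 UMIs, which removes their greater depth, 27 of 295 cells of library 1 (9.15%, interval 6.12% to 13.0%) and 52 of 859 of library 2 (6.05%, 4.55% to 7.86%) had a Ptch1 UMI. The same share was 4.88% (4.24% to 5.59%) and 6.93% (6.31% to 7.59%) among thinned fibroblast class cells, so RPE cells were higher in library 1 and not in library 2. Of the thinned RPE cells, 0 of 295 and 2 of 859 had a Gli1 UMI, and the count of 0 allows up to 1.02% of cells with a UMI at this depth (3 counts of the total). Among thinned fibroblast class cells, 2.39% (97 of 4057) and 2.71% (169 of 6235) had a Gli1 UMI, and among thinned mural class cells 1.63% (18 of 1107) and 2.24% (38 of 1697). Among thinned endothelial cells, whose class held 2 Gli1 UMIs in each library before thinning, 0 of 454 and 0 of 599 had one. Without thinning, Gli1 was detected in 9.72% and 11.2% of fibroblast class cells and in 4.11% and 5.84% of mural class cells. These intervals cover counting error only.

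The promoters of the target genes are shown because Gli1, Ptch1 and Hhip moved together among the fibroblasts. GLI proteins are known to bind the sequence GACCACCCA. In the RefSeq table (GRCm38.p6, from 250 bases before to 50 after the gene start) 6 of the 7 genes had an entry, and Gli1 did not. Starts are those of RefSeq and can lie inside the GENCODE gene. The core CCACCC, or its reverse complement GGGTGG, is in capitals.
Ptch1, chr13:63565686-63565985, minus strand: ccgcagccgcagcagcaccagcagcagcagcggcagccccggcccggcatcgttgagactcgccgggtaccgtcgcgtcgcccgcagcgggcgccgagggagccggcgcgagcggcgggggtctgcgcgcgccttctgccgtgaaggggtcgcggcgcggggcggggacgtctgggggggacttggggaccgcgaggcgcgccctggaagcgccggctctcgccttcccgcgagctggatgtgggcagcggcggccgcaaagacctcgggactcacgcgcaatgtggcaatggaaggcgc
Hhip, chr8:80057959-80058258, minus strand: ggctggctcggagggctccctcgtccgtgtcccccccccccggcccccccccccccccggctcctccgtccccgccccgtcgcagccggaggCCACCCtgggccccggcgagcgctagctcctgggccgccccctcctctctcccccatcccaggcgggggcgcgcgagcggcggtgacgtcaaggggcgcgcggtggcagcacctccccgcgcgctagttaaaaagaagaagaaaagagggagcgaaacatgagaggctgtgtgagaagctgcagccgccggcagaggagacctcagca
Searched on both strands, the full GACCACCCA was in none of the 6 windows and in 83 of all 32851 promoters (0.253%). The shorter ACCACCC, which holds the core, was in the Gli2 window and in 4.61% of all promoters. The core CCACCC was in the windows of Gli2, Gli3, Hhip, Ihh and Smo, not in that of Ptch1, and in 31.5% of all promoters. A match is a match of letters only, and a window without one says nothing about sites elsewhere.

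Of the signal relay genes, Smo and Gli2 were highest in the fibroblast class, as Gli1 and Hhip were, and Gli3 was not. Smo, which passes the signal inward, was highest in the fibroblast class with 28.5 and 34.6 CPM, and then lay at 15.5 and 17.1 CPM in the mural class, 15.8 and 15.8 CPM in the melanocyte class and 13.8 and 15 CPM in the RPE class, where the mural and melanocyte values overlap and both RPE values lie below them. The endothelial class had 6.08 and 5.81 CPM. Gli2, the main activator, had 5.64 and 5.84 CPM in the fibroblast class, 3.26 and 4.65 CPM in the RPE class, and at most 2.20 CPM elsewhere. Gli3, which acts largely as a repressor, followed another order. It was highest in the melanocyte class with 17.9 and 20.8 CPM, against 7.78 and 10.9 CPM in the fibroblast class and 8.29 and 8.67 CPM in the mural class, whose ranges overlap. It was 0.581 and 0.343 CPM in the RPE class.

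Fibroblast markers were also present in the mural class. In the mural class the 3 markers not used for the classes stood at 7.91% and 11.5% of their fibroblast class level, whereas Gli1 stood at 52.0% and 68.2%, Ptch1 at 63.6% and 67.7%, and Smo at 57.5% and 52.4%. Hhip stood at 31.5% in library 1 and 7.67% in library 2, where it was below the share of the markers. Free RNA, estimated from rod photoreceptor genes, made up 3.16% and 13.0% of mural class UMIs and held 5.78 and 6.67 CPM of Gli1. Its part in the mural levels was not tested apart from an alternative that subtracts it. The log2 ratio of the Gli1 level in the fibroblast class over the mural class was 0.82, and it stayed between 0.63 and 1.02 over 8 alternatives, the subtraction included.

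Within the endothelium, Ihh was a capillary transcript. Endothelial cells were divided by marker genes into capillary (Kdr, Car4, Rgcc and Esm1; 192 and 292 cells), arterial (Gja4, Gja5, Sox17, Sema3g and Bmx; 135 and 150 cells) and venous cells (Ackr1, Nr2f2, Selp and Vwf; 115 and 132 cells). Held-out markers followed these names in part: Plvap, Igfbp3 and Col15a1 were highest in the capillary cells, Stmn2 and Efnb2 in the arterial and Lrg1 and Vcam1 in the venous cells, whereas the arterial marker Fbln5 and the venous marker Ephb4 were not highest in their beds in both libraries. Ihh had 157 and 47.2 CPM in capillary cells, against 26.4 and 5.06 CPM in arterial cells and 18.9 and 11.4 CPM in venous cells. The capillary cells were highest in each library, and the groups did not overlap across libraries. The difference from the mean of the other beds was 2.68 ± 0.26 on the log2 scale (SE; adjusted p = 7.75e-06, edgeR quasi-likelihood test with Benjamini-Hochberg adjustment over all genes tested, called at 0.05 where the log2 fold change was also 1 or more in size). In that comparison 1.93% of all genes were called higher and 1.44% lower. The call held under each of the 11 alternatives, with an adjusted p of at most 0.0235. Arterial cells (-1.40 ± 0.33, adjusted p = 0.0445) and venous cells (-1.28 ± 0.35, adjusted p = 0.03, edgeR) were each called lower than the mean of the other beds. The differences of a gene over the beds cancel by construction, so its calls in different beds are tied. These lower calls are therefore no findings apart from the capillary one. Both calls were lost without that bed's sum of either library, with adjusted p of 0.228 and 0.561 for arterial cells and 0.880 and 0.0593 for venous cells, and under 4 further alternatives each. In the arterial comparison 0.760% of all genes were called higher and 0.188% lower, and in the venous comparison 1.95% and 2.05%.

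Ihh was detected in 38.5% (74 of 192) and 22.9% (67 of 292) of capillary cells and was uneven among them. The cell with the most held 73 UMIs in library 1 and 28 in library 2, and 10 cells carried 50.3% and 51.6% of all capillary Ihh UMIs. The median among capillary cells with any Ihh was 4 and 2 UMIs. The 10 genes whose levels were most like that of Ihh, over the 3 beds and 5 other classes in 2 libraries (16 points that share the same libraries, r of log2(CPM + 10)), were Kcne3 (r = 0.970), Robo3, Tbxa2r, Apln, Ripply3, Lipt2, C1qtnf6, Nmb, Ackr2 and Armc7 (0.947). Apln encodes the peptide apelin and Robo3 a guidance receptor of neurons.

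Smo was lowest in the capillary cells, where Ihh was highest. It had 3.37 and 2.67 CPM in capillary cells, against 6.99 and 9.65 CPM in arterial cells and 10.6 and 12 CPM in venous cells, from 10 and 14, 13 and 21, and 14 and 18 UMIs. Capillary cells were lower than the mean of the other beds by 1.74 ± 0.31 (log2, SE; adjusted p = 0.00154, edgeR), a call that was lost without the capillary sum of library 2 (adjusted p = 0.242). Venous cells were called higher (1.20 ± 0.31, adjusted p = 0.0206, edgeR), a call lost without the venous sum of library 1 (0.199) or of library 2 (0.329) and under 3 further alternatives. The venous difference of Smo is tied to the capillary one, as for Ihh. Ptch1, at 8.75 and 9.14 CPM in capillary cells, 8.07 and 11.5 CPM in arterial cells and 2.27 and 8.03 CPM in venous cells, was not called between the beds. Gli1 and Hhip had at most 3 UMIs in any bed of a library, so no difference between beds was detectable at this depth. Called the other way from Ihh was Dhh, another hedgehog ligand, with 1.35 and 1.71 CPM in capillary cells, 9.14 and 8.28 CPM in arterial cells and 5.30 and 4.68 CPM in venous cells. Its difference in capillary cells was -2.04 ± 0.50 (log2, SE; adjusted p = 0.0176, edgeR), from 4 to 18 UMIs a sum, and the call was lost without the capillary sum of library 1 (adjusted p = 0.314) or of library 2 (0.257). Dhh, and Foxf1 between the beds, were named after their values were seen. Among the 41 other hedgehog genes tested, 3 were higher in capillary cells and 2 lower, 2 were higher in venous cells and 3 lower, and 0 were called in either direction in arterial cells, where 3 were higher and 1 lower at an unadjusted p below 0.05 (edgeR). Without the tested bed's sum of library 1, 1 of the 3 higher and 0 of the 2 lower calls in capillary cells held, and 0 of the 5 in venous cells. Without that of library 2, 2 of the 3 and 0 of the 2 held in capillary cells, and 1 of the 2 and 1 of the 3 in venous cells.

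**Figure D2:**
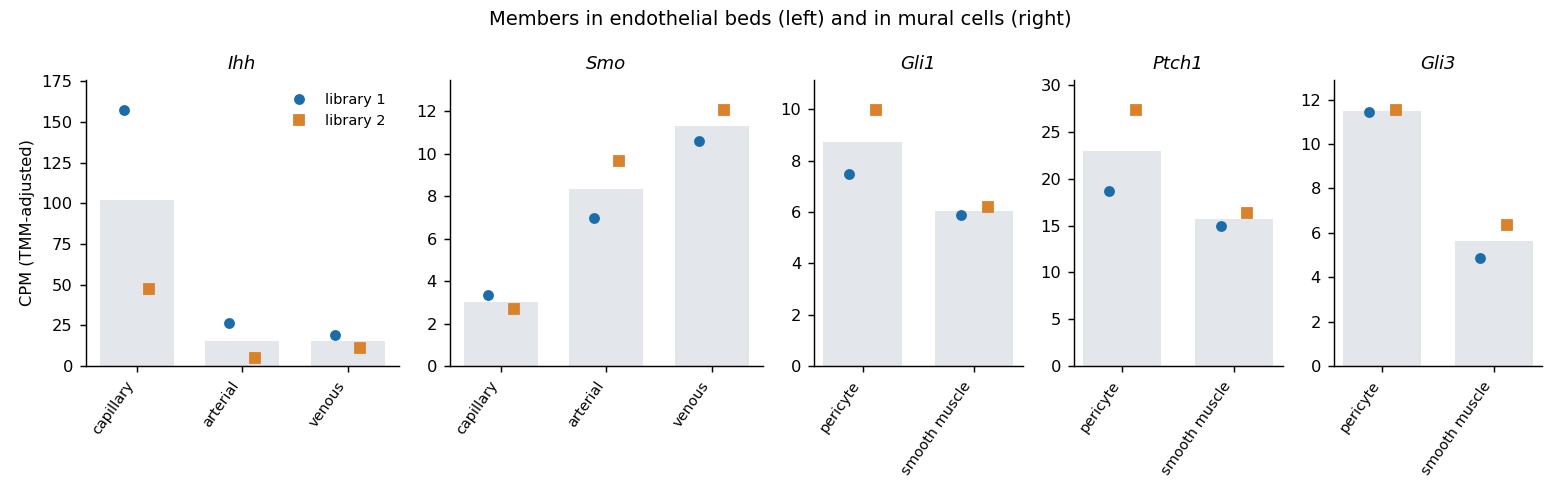
Level (CPM on TMM-adjusted library sizes, y axis from 0) of Ihh and Smo in capillary, arterial and venous endothelial cells, and of Gli1, Ptch1 and Gli3 in pericytes and smooth muscle cells. Bars are means of 2 libraries. Ihh is highest in capillary cells, at 157 and 47.2 CPM, and Smo lowest there, at 3.37 and 2.67 CPM.

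Mural cells were divided by marker genes into pericytes (Kcnj8, Abcc9, Vtn and Higd1b; 640 and 912 cells) and smooth muscle cells (Myh11, Cnn1, Lmod1 and Tagln; 412 and 687 cells). Held-out markers followed these names in part. Pdgfrb and Ndufa4l2 were higher in pericytes in both libraries, and Casq2, Synpo2 and Des in smooth muscle cells. For Des the levels were 431 and 367 CPM in smooth muscle cells, against 333 and 329 CPM in pericytes. The pericyte marker Cspg4 went the other way, with 42.4 and 80.1 CPM in pericytes and 107 and 164 CPM in smooth muscle cells. Both groups carried Gli1. Pericytes had 7.47 and 9.95 CPM of Gli1 and smooth muscle cells 5.86 and 6.20 CPM, so pericytes were higher in each library. The difference of 0.55 ± 0.35 was not called (log2, SE; adjusted p = 0.304, edgeR). Ptch1 had 18.7 and 27.3 CPM in pericytes and 15 and 16.4 CPM in smooth muscle cells, again higher in pericytes in each library and not called (0.57 ± 0.23, adjusted p = 0.0985, edgeR). Smo (15.7 and 15.1 CPM in pericytes, 17.3 and 21.3 CPM in smooth muscle cells), Gli2 and Hhip were not called either.

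Gli3 had 11.5 and 11.5 CPM in pericytes, against 4.88 and 6.36 CPM in smooth muscle cells. The difference of 1.00 ± 0.28 (log2, SE) passed the test at the edge of the required size (adjusted p = 0.0162, edgeR). Without the pericyte sum of library 1 it was 0.90 with an adjusted p of 0.179, and without that of library 2 it was 1.23 with 0.131. In this comparison 5.34% of all genes were called higher and 7.09% lower. Ihh had 0 and 0 UMIs in pericytes and 5 and 11 in smooth muscle cells, at most 1.75 CPM. The fit called this lower in pericytes (adjusted p = 0.00687, edgeR), from few UMIs. Free RNA held 6.45 and 2.12 CPM of Ihh and made up 1.18% and 2.01% of smooth muscle UMIs. Its part in this difference was not tested, nor was whether smooth muscle cells express Ihh. Of 41 other hedgehog genes, 3 were higher in pericytes and 5 lower, of which 1 and 1 held without the pericyte sum of library 1 and 0 and 2 without that of library 2. Fibroblast markers stood at 8.61% and 11.8% of their fibroblast class level in pericytes and at 6.03% and 9.43% in smooth muscle cells. Free RNA made up 22.1% of pericyte UMIs in library 2, against 4.84% in library 1, and its part in the difference between the libraries was not tested.

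Among fibroblasts the targets were far from even. Fibroblast class cells were clustered without hedgehog genes, class markers or mitochondrial genes. Of 24 clusters, 17 had at least 20 cells in each library, and 2 of these (256 cells) were set aside for markers of another cell type or a share of predicted doublets above 30%. The remaining 15 clusters held 9854 cells and are called by their leading genes. Their levels are CPM of raw UMI totals and a description without a test.

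**Figure D3:**
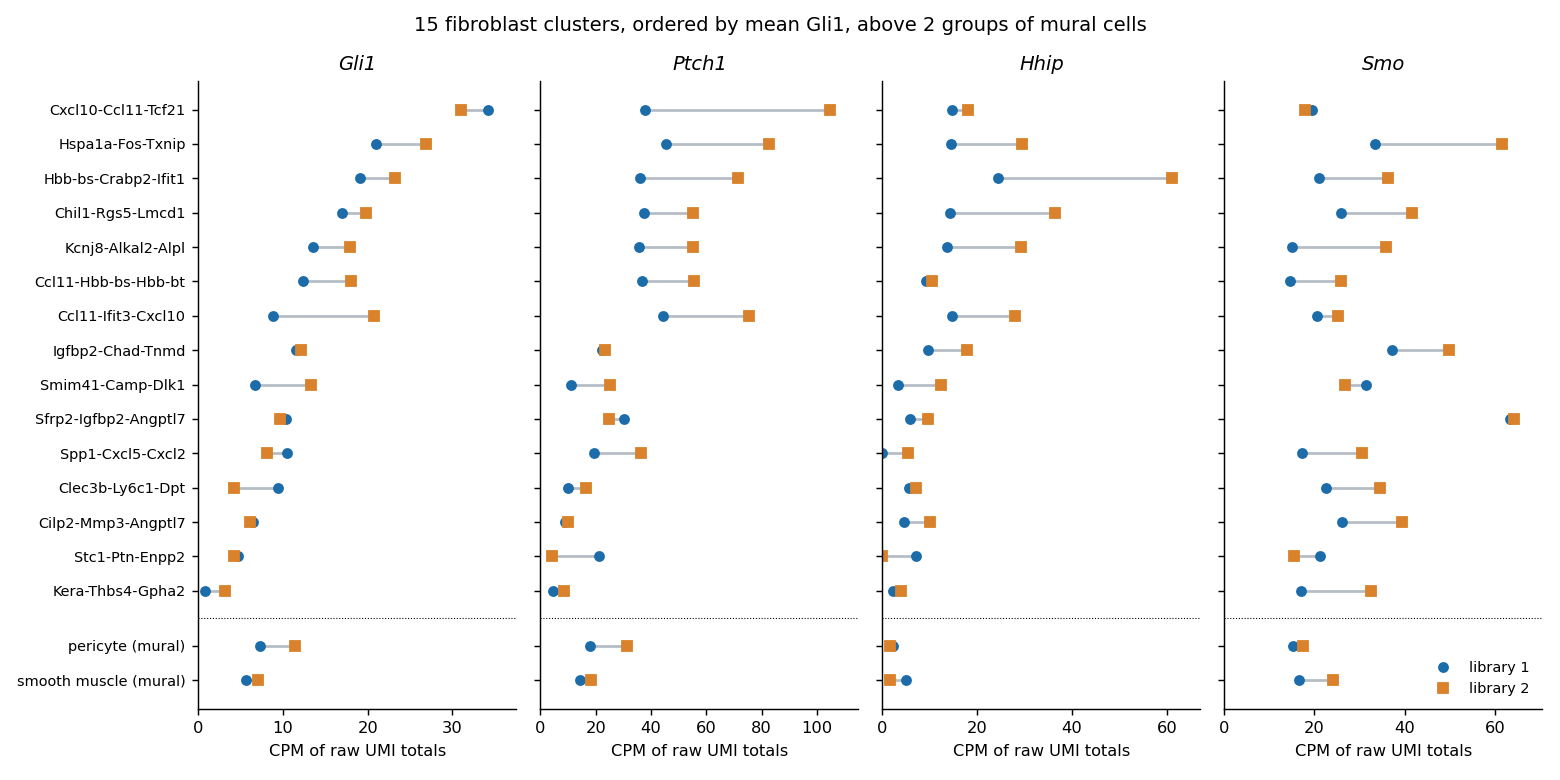
Gli1, Ptch1, Hhip and Smo (CPM of raw UMI totals, x axes from 0) in 15 fibroblast clusters ordered by mean Gli1, with pericytes and smooth muscle cells below the dotted line. Circles are library 1 and squares library 2, and a line joins the 2 libraries. The Cxcl10-Ccl11-Tcf21 cluster has the highest Gli1, at 34.2 and 31.0 CPM, and the Kera-Thbs4 cluster the lowest, at 0.743 and 3.17 CPM.

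Gli1 was highest in a cluster led by Cxcl10, Ccl11 and Tcf21, with 34.2 and 31.0 CPM (28 and 38 UMIs in 141 and 206 cells). The next were a cluster led by Hspa1a and Fos (21.0 and 26.9 CPM), one led by Hbb-bs and Crabp2 (19.1 and 23.2 CPM), one led by Chil1, Rgs5 and Lmcd1 (16.9 and 19.8 CPM), one led by Kcnj8 and Alkal2 (13.5 and 17.9 CPM), and 2 led by Ccl11, with Tfpi2 (12.4 and 18 CPM) or with Ifit3 (8.85 and 20.7 CPM). Stress genes (Hspa1a, Fos), interferon-response genes (Cxcl10, Irf1, Ifit1, Ifit3) and the red cell genes Hbb-bs and Hba-a1 were among the leading genes of several of these clusters, and the mural gene Rgs5 of another. Their part in the Gli1 level was not tested. At the other end stood the Kera-Thbs4 cluster (0.743 and 3.17 CPM), the Stc1-Ptn cluster (4.74 and 4.22 CPM), the Cilp2-Angptl7 cluster (6.45 and 6.10 CPM), and a cluster led by Clec3b, Dpt and Pi16 (9.37 and 4.20 CPM), genes known from fibroblasts around large vessels and in fascia. Kera encodes the corneal and scleral proteoglycan keratocan.

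Ptch1 was high in the clusters with high Gli1. In the 7 clusters with the highest mean Gli1, Ptch1 ranged from 35.8 to 45.3 CPM in library 1 and from 55.2 to 104.5 CPM in library 2. In the other 8 clusters it ranged from 4.46 to 30.3 CPM and from 4.22 to 36.4 CPM. The Ptch1 ranges did not overlap within either library. No planned rule set the cut at 7 clusters. Gli1 itself overlapped across it in library 1, at 8.85 to 34.2 CPM against 0.743 to 11.6 CPM. Hhip, at 9.27 to 24.3 and 10.6 to 61.0 CPM in the same 7 clusters and 0 to 9.60 and 0 to 17.8 CPM in the other 8, overlapped slightly and was highest in the Hbb-bs-Crabp2 cluster, at 24.3 and 61.0 CPM. The 7 clusters held 59.7% and 49.1% of the clustered cells. They also held 65.5% and 65.0% of the Ptch1 UMIs and 69.5% and 63.4% of the Hhip UMIs of the 15 clusters, against 35.1% and 33.9% of the Smo UMIs. Their share of the Gli1 UMIs, 62.9% and 58.4%, follows from their choice by Gli1 and is no separate result. Median depth was 4983 to 11446 UMIs a cell in these 7 clusters and 6793 to 15069 in the other 8. Ptch1 was higher in library 2 in 13 of the 15 clusters, Hhip in 14 and Gli1 in 9.

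Over the 15 clusters, Gli1 and Ptch1 correlated with r = 0.75 in library 1 and 0.95 in library 2 (r of log2(CPM + 10)), and Gli1 and Hhip with 0.68 and 0.81. Gli1 and Smo gave 0.03 and 0.06, Gli1 and Gli2 0.25 and 0.13, and Gli1 and Gli3 0.11 and 0.11. These values describe clusters of the same 2 libraries, whose depth differs. Before the 10 was added, Gli2 spanned only 0 to 12.7 CPM and Gli3 3.44 to 19.7 CPM, some from few UMIs. The part of this in their low r was not tested. Smo was highest in the Sfrp2-Igfbp2-Angptl7 cluster, at 63.3 and 64.2 CPM, where Gli1 was 10.3 and 9.62 CPM, and Gli2 was highest in the same cluster at 12.7 and 11.8 CPM. Gli3 was highest in the Clec3b-Dpt-Pi16 cluster, at 13.7 and 19.7 CPM.

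**Figure D4:**
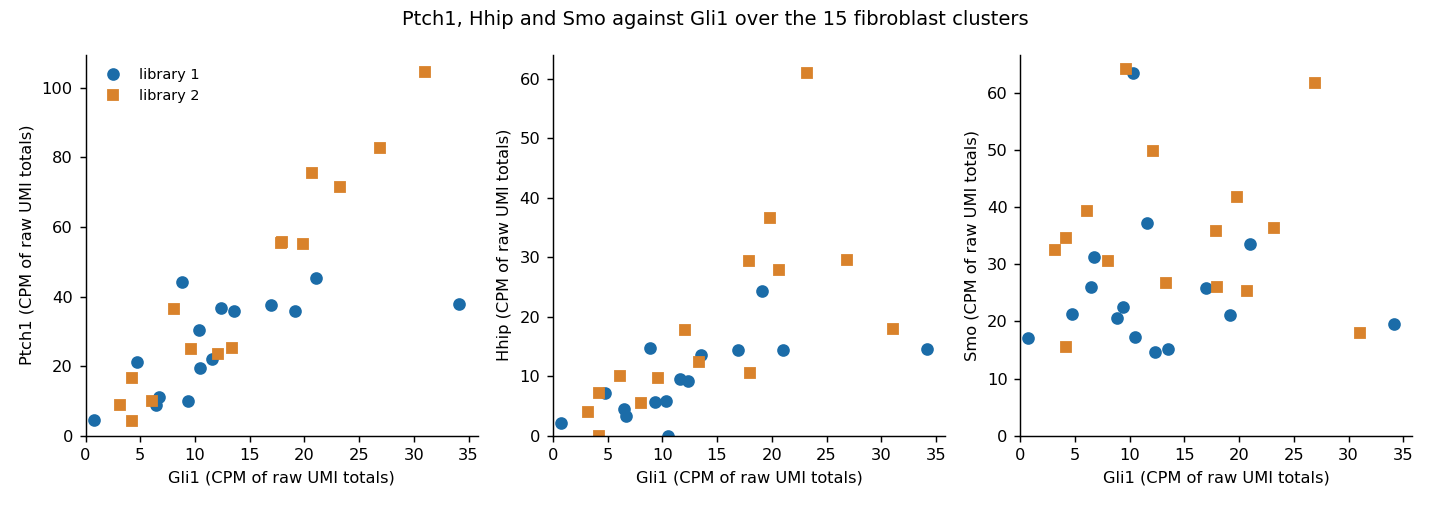
Ptch1, Hhip and Smo (y axes) against Gli1 (x axis), all as CPM of raw UMI totals, with 1 point for each of 15 fibroblast clusters in each library. Ptch1 and Hhip rise along Gli1, with r of 0.75 and 0.95 for Ptch1, and Smo does not, with r of 0.03 and 0.06.

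Fibroblast class cells were also grouped by fixed marker sets in place of clusters, an alternative chosen after seeing the data. Cells assigned to the Crabp2-Ephb1 set had 17.0 and 19.2 CPM of Gli1, 39.2 and 52.5 CPM of Ptch1 and 16.0 and 37.3 CPM of Hhip. The epithelial genes Krt14 and Sfn were among the leading genes of this set, and 2 of its top 10 genes were markers of 1 other cell type, the number at which clusters were set aside. Their part in its levels was not tested. Those of the Tfpi2-Tcf21 set had 14.9 and 16.7 CPM of Gli1 and 32.8 and 66.5 CPM of Ptch1. Cells of the Angptl7-Cilp2 set were lowest of the 7 sets in these genes in both libraries, with 4.50 and 6.24 CPM of Gli1, 13.9 and 13.0 CPM of Ptch1 and 4.71 and 9.18 CPM of Hhip. The Kera-Thbs4 set did not repeat the low Gli1 of the cluster of that name, with 9.15 and 12.9 CPM. The spread between sets was narrower than between clusters: the highest set had 1.58 times the median set's Gli1, against 2.75 times for the highest cluster.

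Few cells had a UMI of both Gli1 and Ptch1. Among fibroblast class cells thinned to 2000 UMIs, Ptch1 was detected in 6 of the 97 cells with a Gli1 UMI in library 1 (6.19%, interval 2.30% to 13.0%), against 4.85% of the 3960 cells without (4.20% to 5.56%), and these intervals overlap. In library 2 it was detected in 24 of 169 (14.2%, 9.32% to 20.4%), against 6.73% of 6066 cells (6.11% to 7.39%), and these do not. Summed within the 15 clusters, the cells without Gli1 gave an expected 5.55 and 13.9 such cells, against 6 and 24 observed, a ratio of 1.08 and 1.72. Whether the libraries differ was not tested. For Hhip, Gli2, Gli3 and Smo the intervals of cells with and without Gli1 overlapped in both libraries.

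Over the fibroblast clusters and the other classes (22 groups in each of 2 libraries, 44 points that share the same libraries), the 10 genes most like Gli1 by r of log2(CPM + 10) were Cygb (0.90), Angpt1 (0.88), Smoc1 (0.85), Irx1 (0.84), Irx2 (0.84), Serpine2 (0.84), Foxd2os (0.84), Igfbp4 (0.83), Mical2 (0.83) and Klf5 (0.83). On the same scale Hhip gave 0.78, Ptch1 0.70, Gli2 0.52, Smo 0.50 and Gli3 0.34. Angpt1 encodes the endothelial growth factor angiopoietin-1, and Irx1, Irx2 and Klf5 are transcription factors.

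The rest of the pathway was set beside the members in the same classes. In all, 42 of 43 other hedgehog genes could be tested, and Shh had 0 UMIs in both libraries. In the fibroblast class 22 of the 42 were higher than the mean of the other 5 classes and 0 lower (edgeR; DESeq2 also called 0, and 5 were lower at an unadjusted p below 0.05), where 18.2% of all genes tested were called higher and 8.74% lower. The median log2 fold change of the 42 was 1.14, against -0.01 over all genes. Of the receptors and co-receptors, 7 of 8 were higher. They include the co-receptors Cdon (16.3 and 19.9 CPM in the fibroblast class; 4.14 ± 0.27, log2, SE), Gas1 (210 and 178 CPM; 4.06 ± 0.26) and Boc (83.0 and 90.2 CPM; 3.84 ± 0.10), which help present the ligand to PTCH1. Of the ligands and release factors, 4 of 6 were higher, led by Scube2 (4.31 ± 0.49) and Scube1 (3.22 ± 0.14), whose proteins release lipid-modified ligand. The ligand Dhh was also called (2.06 ± 0.54), a call lost without the fibroblast sum of library 2 (1.94). Of the Dhh UMIs of all cells, 29 of 76 and 38 of 94 lay in 66 and 85 cells with Schwann cell markers. The part of Schwann cells in this call was not tested. Of the cilium and relay genes 5 of 16 were higher, among them Gpr161 (2.05 ± 0.50; adjusted p = 0.0554 without the fibroblast sum of library 2), Evc2 (1.8 ± 0.17) and Evc (1.55 ± 0.19). Of the other target genes 6 of 12 were higher, with Igfbp6 (5.57 ± 0.27), Osr2 (4.71 ± 0.26) and Foxl1 (2.94 ± 0.25) in front.

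**Figure D5:**
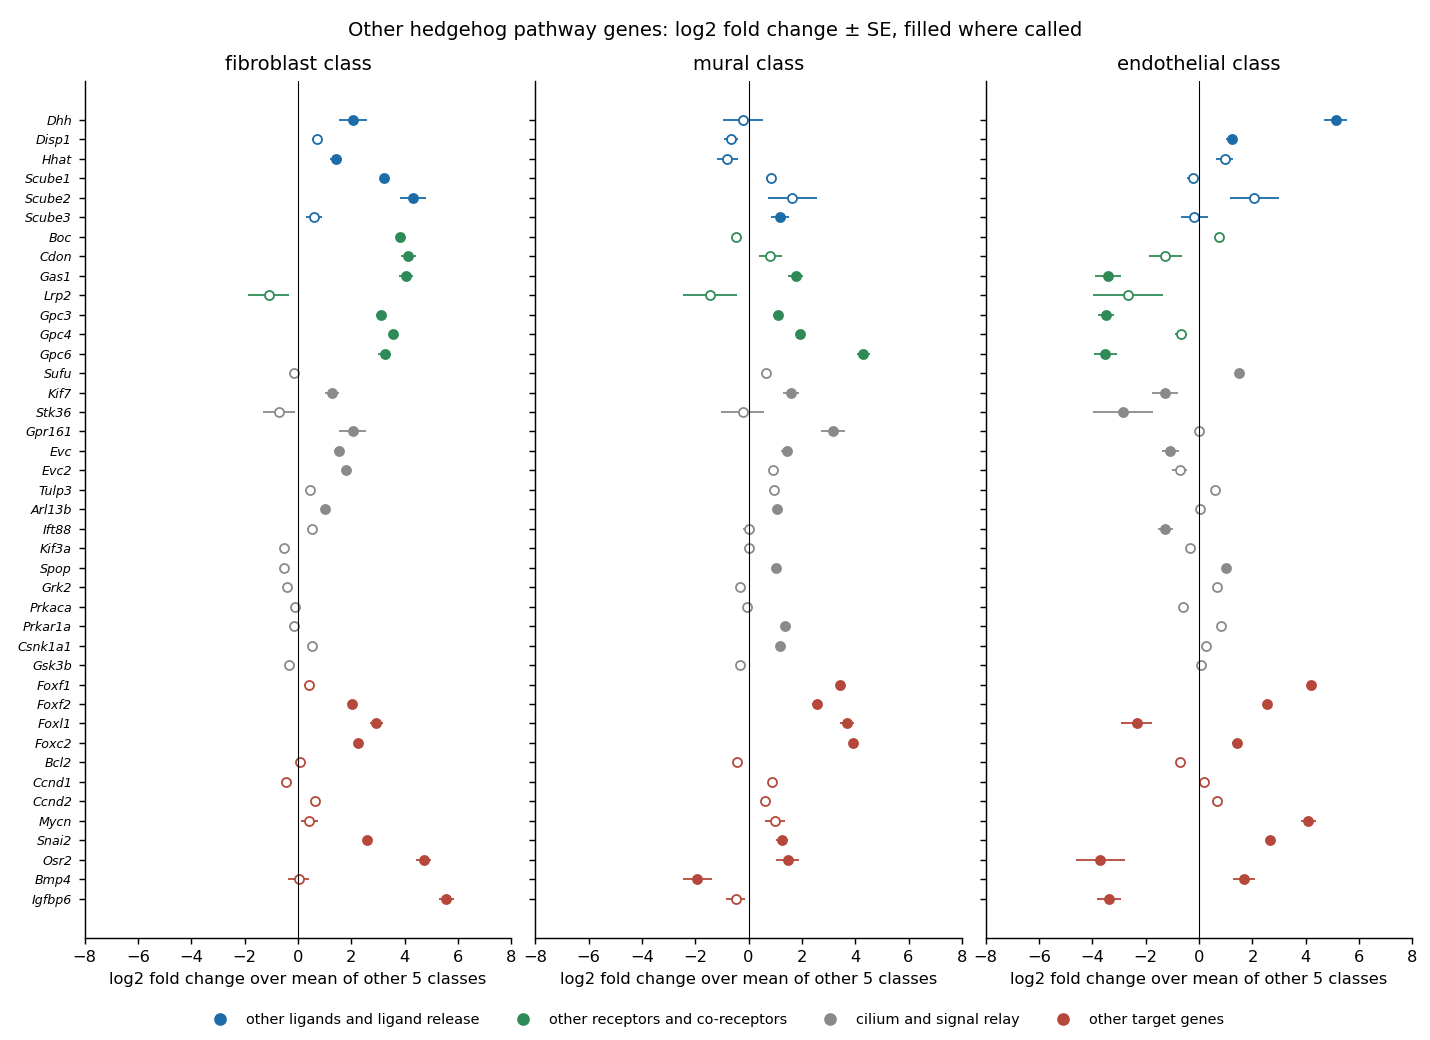
Log2 fold change (x axis, ± SE) of 41 of the 42 other hedgehog genes tested in the fibroblast, mural and endothelial class over the average of the remaining 5 classes. Filled points passed the test, and colours mark the gene lists. Boc, Cdon and Gas1 are higher in the fibroblast class, at 3.84, 4.14 and 4.06, and Gas1 is lower in the endothelial class, at -3.41.

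In the mural class 19 of the 42 were higher and 1 lower, against 14.6% and 10.4% of all genes, with a median of 0.98 (-0.08 over all genes). Of the receptors and co-receptors 5 of 8 were higher, among them Gpc6 (297 and 346 CPM; 4.30 ± 0.24) and Gpc4 (1.92 ± 0.15). The mural class was not called for Boc or Cdon. Among the targets 6 of 12 were higher, with Foxc2 (3.91 ± 0.14), Foxl1 (3.70 ± 0.26) and Foxf1 (28.1 and 25.4 CPM; 3.44 ± 0.16) in front. The 1 lower gene was Bmp4 (-1.92 ± 0.54), a call lost without the mural sum of library 1 (adjusted p = 0.0934) or of library 2 (0.214) and with free RNA subtracted (adjusted p = 1). Of the relay genes 7 of 16 were higher, led by Gpr161 (3.16 ± 0.46), and of the ligand genes 1 of 6, Scube3 (1.18 ± 0.34), a call lost without the mural sum of library 2 (adjusted p = 0.0913).

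In the endothelial class 10 of the 42 were higher and 10 lower, against 15.4% and 20.8% of all genes, with a median of 0.06 (-0.15 over all genes). Of the 8 receptors and co-receptors 0 were higher (1 at an unadjusted p below 0.05, edgeR) and 3 were lower: Gpc6 (-3.51 ± 0.44), Gpc3 (-3.50 ± 0.29) and Gas1 (1.76 and 3.62 CPM; -3.41 ± 0.48). Dhh was higher (5.12 ± 0.43), at 4.48 and 3.72 CPM. Targets divided, with 6 of 12 higher and 3 lower. Foxf1 (39.4 and 43.4 CPM; 4.20 ± 0.15), Mycn (4.09 ± 0.28) and Snai2 (2.66 ± 0.19) were higher, and Osr2 (-3.70 ± 0.93) and Igfbp6 (-3.37 ± 0.45) were called lower. Both calls were lost with free RNA subtracted (adjusted p = 1 for each), and Osr2 had 0 and 1 UMIs in the class. The endothelial call for Foxl1 (-2.33 ± 0.58) was lost when predicted doublets were removed (-0.40, adjusted p = 0.937). Foxf1 was also higher in capillary cells, at 61.9 and 59.0 CPM, than in arterial cells at 24.2 and 24.8 CPM and venous cells at 12.1 and 18.7 CPM (1.63 ± 0.19 against the mean of both, adjusted p = 3.35e-05, edgeR). In the melanocyte class 9 of the 42 were higher and 11 lower, against 14.5% and 11.3% of all genes. In the RPE class 7 were higher and 18 lower, against 26.1% and 24.6%, and in the macrophage class 2 and 21, against 19.5% and 21.3%. All calls on the other hedgehog genes are at an adjusted p below 0.05 from the edgeR quasi-likelihood test.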

How the data were processed

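Single-cell 3' libraries of wild-type mouse choroid-RPE (2 libraries, 1 group) were made with 10x chemistry. The deposited values are raw UMI counts per gene and barcode; the authors made them with Cell Ranger, as version 4 per the file headers but as 2.1.1 on mm10 per the submitters' processing notes. No other read-level step is stated.

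The 7 members and the gene lists were chosen with earlier results of these data known. Levels were summed per library and group, so that libraries and not cells are the replicates; n is 2 for each level. They are CPM on TMM-adjusted library sizes for classes, beds and mural cells, and CPM of raw UMI totals for clusters and markers. Sums were fitted with edgeR 4.0.16 (R 4.3.3, TMM, filterByExpr, robust quasi-likelihood, library as a block because sums of 1 library come from the same mice), over 15420 genes in 12 class sums and 14338 in 18 sums with beds and mural cells. The block takes out the shift of a gene that all sums of a library share. With 2 pools, p-values therefore measure how far differences between groups vary between the libraries, pooled over groups. This spread may be technical. On simulated counts the class fit recovered 84% and the pericyte against smooth muscle fit 48% of genes changed 2-fold, with 8 and 5 false calls. These counts used an adjusted p below 0.05 without the required log2 fold change of 1. The simulation gave all groups the same profile otherwise, a fixed dispersion and no library effect. It therefore does not give the recovery or false calls of the calls reported here. Mural and endothelial cells were divided by the marker set with the highest sum relative to its mean, with at least 2 UMIs. Fibroblast clusters used scanpy 1.11.5 (2000 variable genes, 30 components, 15 neighbours, Leiden resolution 1.0); the doublet limit for setting clusters aside was added after the clusters were seen. Scrublet marked 2.52% and 5.27% of barcodes as doublets, which were kept and removed in an alternative. Named genes are all members, of each other list at most the 3 largest called changes per direction in the fibroblast, mural and endothelial classes, and the 10 genes most like Gli1 and Ihh. Some results on items of the lists are not reported here. Positions are from GENCODE on GRCm38.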

Additional observations from a re-analysis of the deposited data

How the results depend on the processing

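The lower-than-others counts of hedgehog genes moved most. In the fibroblast class 1 was lower with doublets removed (0 in the main fit). In the mural class 0 were lower with doublets removed, with free RNA subtracted and with no filter on low counts, and 0 with either library's sum left out (1 in the main fit). With free RNA subtracted 5 were lower in the endothelial class and 3 in the melanocyte class (10 and 11 in the main fit), and with a library left out 6 to 7 and 6 to 12. In the macrophage class 1 was higher with raw totals, 1 with no filter, and 1 to 2 with a library left out (2 in the main fit). Gli3 between pericytes and smooth muscle cells was 0.96 with 10 class marker UMIs, 1.00 without doublets, 1.04 with free RNA subtracted, 1.00 without the replicate block (adjusted p = 0.0753), 1.00 without shared barcodes, and 0.90 to 1.23 with a library left out; each lost the call, with adjusted p or the required log2 of 1 missed. The log2 ratio of Ihh in endothelial over RPE cells was 5.91 to 6.95 with a library left out. Uncalled differences changed sign with a library left out for Hhip between pericytes and smooth muscle cells (-1.22 to 0.0373), Ptch1 in capillary cells (-0.0627 to 1.03) and Gli3 in arterial cells (-0.41 to 0.60). Among fibroblasts, the highest over the median group was 1.58 for Gli1 and 1.8 for Hhip with marker sets, 1.84 for Hhip at resolution 0.5, and with a library left out 2.33 to 3.26 for Gli1, 1.5 to 2.87 for Ptch1 and 2.63 to 4.92 for Hhip. For shares of cells with a UMI, the log2 ratio for Ptch1 (RPE over fibroblast) was 0.36 at 2000 UMIs and 0.24 at 4000. In unthinned cells the log2 ratio was 1.36 for Ptch1, 1.07 for Smo and 1.07 for Gli1 (fibroblast over mural), and -0.74 for Gli2 (fibroblast over RPE), a reversal, with RPE cells the deeper ones. At 4000 UMIs it was 0.61 for Smo, 0.62 for Gli1 and 0.31 for Gli2. Counts of all genes called ranged over 31 to 202 higher and 1 to 43 lower in arterial cells (109 and 27 in the main fit), 106 to 306 and 79 to 272 in capillary cells (277 and 206), 138 to 343 and 98 to 352 in venous cells (280 and 294), and 585 to 1397 lower in pericytes (1016). The Ihh arterial and venous calls, both lower, were lost without either library's sum, without the replicate block (adjusted p = 0.668 and 0.401), with doublets removed (0.154 and 0.0982) and with free RNA subtracted (0.128 and 0.0791), the arterial call also with raw totals (0.0726) and the venous call with DESeq2 (0.0842). The Smo venous call was also lost with free RNA subtracted (0.118) and with 10 class marker UMIs (0.0523). The causes were not tested. The replicate block was otherwise left out with no change of a member's call except for Gli3 and for Smo in venous cells (adjusted p = 0.0586).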
